A study of Mus musculus with 2 samples.

Results

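The genes of the cytosolic ribosomal proteins were examined in total RNA of mouse megakaryocyte-erythroid progenitors (MEP), bone marrow cells named for the erythroid and megakaryocyte lineages. Members were the protein-coding genes whose symbol is Rpsa or begins with Rpl or Rps and a digit or with Rplp and a digit, leaving out the Rps6k kinases and Rps19bp1. This name rule held 91 of the 42462 gene rows that matched GENCODE M21, which include 21461 nuclear protein-coding genes. Of the 91 genes, 46 encode standard proteins of the large subunit and 31 standard proteins of the small subunit, and these 77 are called core genes. The other 14 are related genes: Rpl3l, Rpl7l1, Rpl9-ps1, Rpl9-ps6, Rpl10-ps3, Rpl10l, Rpl22l1, Rpl36-ps4, Rpl36a-ps1, Rpl36al, Rpl39l, Rps12-ps3, Rps27l and Rps27rt. The name rule left out some genes whose products also sit in the ribosome, such as Fau and Rack1.

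The series held a single group of 2 libraries, so no treatment or genotype was compared. The cells were primary MEP of adult C57BL/6J males, 5 to 6 weeks old, with no transgene or treatment named. Both libraries carried one donor entry but separate biosample entries, so they may share an animal, and the spread between them may be partly technical. Each came from 100 ng of input after removal of ribosomal RNA, and the size ranges began at 200 (replicate 1) and 215 (replicate 2), with no unit given.

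The libraries held 39919884 (replicate 1) and 48043010 (replicate 2) expected counts, which are estimated read or fragment numbers that may be fractional where a read fits several rows. TPM, the transcript abundance, corrects these counts for length and sets the sum of each table to a fixed total. Nuclear protein-coding genes held 25.5% and 20.6% of that total, but 87.0% and 84.9% of the expected counts. The cell label was checked against markers: 8 of 8 erythroid or megakaryocyte markers reached a TPM of 1 in both libraries (Gata1 at 35.8 and 31.3 TPM, Klf1 at 43.0 and 49.0), with summed levels of 982 and 926, mostly Car1 (723 and 708). The megakaryocyte markers were lower in replicate 2: Itga2b was at 19.6 and 5.70 TPM and Pf4 at 23.5 and 8.71. Of 12 markers of other cells, 2 reached a TPM of 1 in both libraries (Cd34 and S100a8). The summed TPM of the 12 was 51.1 and 81.4, and Cd3e and Ly6a had 0 counts in both. Cd34 stood at 18.3 and 1.44 TPM, S100a8 at 30.7 and 68.2, and Gzma at 0 and 792 counts, so the libraries differed in cell markers. The part of such markers' cells in the values below, ratios between the libraries included, was not tested.

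A cytosolic ribosome joins a small subunit, which decodes the messenger RNA, to a large subunit, which forms peptide bonds, and each subunit needs nearly all of its proteins in equal number. In vertebrates most of the messenger RNAs of these proteins begin with a C and a run of pyrimidines (C or T in the gene), the 5′ terminal oligopyrimidine motif, through which mTOR signalling sets their translation. Red cell precursors make large amounts of globin, and loss of 1 copy of some ribosomal protein genes causes Diamond-Blackfan anaemia, in which erythroid precursors fail.

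All 77 core genes were expressed, and they stood among the most abundant messenger RNAs of these cells. In both libraries, 86 of the 91 genes reached a TPM of 1 (the limit used for detection), against 39.4% of nuclear protein-coding genes. When nuclear protein-coding genes were ranked by mean TPM, ribosomal protein genes made up 5 of the first 10, 34 of the first 50, 60 of the first 100 and 76 of the first 200. Together the 91 genes took 6.67% of all expected counts in replicate 1 (exact 95% interval 6.66 to 6.67%) and 6.30% in replicate 2 (6.30 to 6.31%). These intervals cover counting error only. In bulk RNA a change in the number of cells of a type and a change in RNA per cell cannot be told apart.

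The core genes had a median mean level of 579 TPM, from 645.8 in replicate 1 to 497.1 in replicate 2. Nuclear protein-coding genes detected in both libraries had a median of 8.125 TPM. Levels within the core were less dispersed than among those genes: the upper quartile was 2.21 times the lower, against 4.74 times. Of the 77, 14 lay above a mean of 1000 TPM, 54 between 250 and 1000, and 9 below 250. The highest and the lowest core gene nevertheless differed 65.4-fold in replicate 1 and 39.1-fold in replicate 2.

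**Figure D1:**
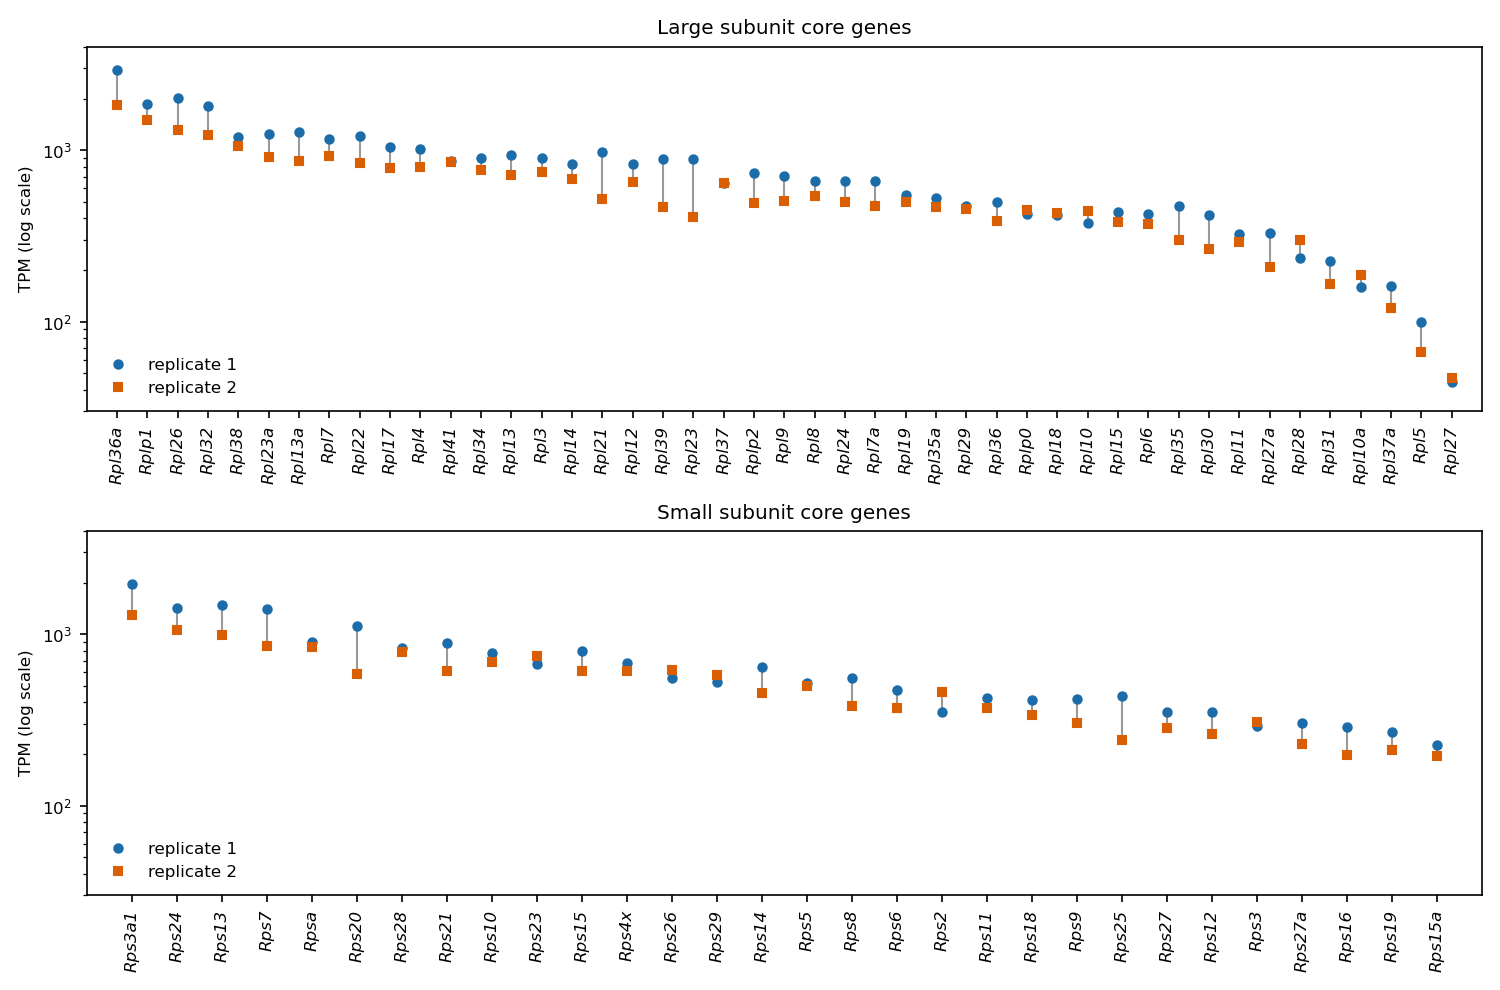
TPM (log scale) of the core genes named on the axes in replicate 1 (circles) and replicate 2 (squares), ordered by mean within the large and the small subunit, with a grey line joining both values of a gene. Most genes lie between 250 and 1000 TPM, and Rpl5 and Rpl27 stand below all others.

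Rpl36a, on the X chromosome, was the highest, at 2921 and 1839 TPM (mean 2380 ± 765, SD, n = 2). It encodes a large subunit protein near the exit site for transfer RNA. Rplp1, a protein of the P stalk that recruits translation factors, followed at 1867 and 1491 TPM. Rpl26, at 2010 and 1316 TPM, also binds the p53 messenger RNA in addition to its place in the large subunit. The small subunit gene Rps3a1 stood at 1975 and 1296 TPM, and Rpl32 at 1806 and 1231. These 5 were lower in replicate 2, and so was each of the next 5 in order of mean, Rps24, Rps13, Rpl38, Rps7 and Rpl23a, whose means ran from 1239 down to 1080 TPM. The range of each of the 5 highest overlapped that of at least 1 other among them.

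The 10 lowest core genes had means from 45.9 to 265 TPM. Rpl27 was the lowest at 44.7 and 47.1 TPM, and Rpl5, which carries 5S rRNA into the large subunit, came next at 99.7 and 66.6 TPM. Rpl37a stood at 162 and 119 TPM, and Rpl10a, whose protein forms the L1 stalk, at 158 and 187. Their ranges overlapped. Rpl31 (226 and 166 TPM), Rps15a (227 and 195), Rps19 (269 and 211), Rps16 (288 and 196) and Rps27a (302 and 229) also belonged to this group.

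The order of the core genes was fine-grained and mostly unresolved. Among the 76 pairs of neighbours in the order of mean TPM, the gap between means exceeded the sum of the SDs of both genes in 2, and 17 pairs kept the same order in both libraries. Across the 77 genes the libraries' log2 TPM correlated with Pearson's r of 0.96 and Spearman's rho of 0.94, a description across genes, which are not replicates. The median change of rank was 3 places and the largest 27. Mean TPM and effective length correlated with a rho of -0.22 across the 77 genes.

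On TPM of the genes alone, levels of the subunits did not differ beyond the spread between the libraries. The difference depended on the setting and was larger than that spread on others given here. The median mean level was 548 TPM for the 31 small subunit genes and 602 TPM for the 46 large subunit genes. On the scale of log2(TPM + 1) the small minus large difference of medians was -0.25 in replicate 1 and 0.00 in replicate 2 (SD of these values 0.18, n = 2). Taken on the mean levels it was -0.14. It was -0.37 when the TPM of matching pseudogene rows, described below, was added to each gene, and -0.34 with counts per kb of annotated length. The sums behind -0.37 left out protein-coding copies, among them Rps12-ps3 and Rps27rt, which resemble small subunit genes.

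The members of the P stalk had unequal levels. Rplp0, the base of the stalk that anchors the P1 and P2 proteins, was measured at 425 and 449 TPM. Rplp1 was at 1867 and 1491 TPM, and Rplp2 at 732 and 492. All 3 kept this order in replicate 1 and in replicate 2, with Rplp1 above Rplp2 and Rplp2 above Rplp0.

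Rpl11, the partner of Rpl5 in the 5S ribonucleoprotein that binds Mdm2, stood at 325 and 290 TPM, above the row of Rpl5 in both libraries. With matching pseudogene rows, described below, added to each gene, the order was reversed. Rpl5 then had 2270 and 1645 TPM and Rpl11 410 and 353. Rps27a, given above, is made as a fusion with ubiquitin. Fau, whose product is cleaved from a ubiquitin-like protein to give a small subunit protein, was at 272 and 222 TPM. Rack1, a small subunit scaffold, was at 436 and 412 TPM.

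All 19 listed genes whose mutation is linked to Diamond-Blackfan anaemia were detected, with a median mean level of 425 TPM against 579 for the whole core and a range from 45.9 to 1663. On the gene rows alone, Rpl26, Rps24 and Rps7 had the highest means of the 19. Rps24 was measured at 1417 and 1061 TPM and Rps7 at 1395 and 851. Rps28 (834 and 783 TPM), Rps10 (777 and 690), Rps26 (553 and 616) and Rps29 (527 and 577) had lower means. Values were lower for Rpl35a (527 and 464 TPM), Rpl18 (421 and 429), Rpl15 (434 and 383), Rpl35 (472 and 299) and Rps27 (350 and 283). Rps19, the gene most often mutated in this disease, was at 269 and 211 TPM, below Rpl11 and above Rps15a, Rpl31, Rpl5 and Rpl27 in mean. With matching pseudogene rows, described below, added, Rpl31, Rpl5 and Rpl27 had means of 1041, 1957 and 1626 TPM. Rps15a then had 252 TPM and Rps19 247. Short pseudogene rows weigh heavily in such sums of TPM. For Rpl31 in replicate 1, counts rose from 15277 to 31120 and TPM from 226 to 1313. In replicate 2, TPM was lower for 15 of the 19 and higher for 4, and counts scaled by TMM (trimmed mean of M values, which sets the bulk of genes equal) were lower for 10 and higher for 9. Of all nuclear protein-coding genes tested between the libraries, 76.3% were lower on TPM and 48.2% on TMM-scaled counts, so these counts were near the background.

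The counts of several core genes were shared with processed pseudogenes, which are intronless copies inserted elsewhere in the genome. Transcripts of 1216 pseudogene rows matched a core transcript with at least 80% identity over at least 50% of their length, and 403 of these rows held counts. They took 504621 counts in replicate 1 and 489096 in replicate 2, equal to 18.96% and 16.15% of the counts of the 91 genes. Chosen by name alone, whatever their match, pseudogene rows named after a ribosomal protein gene with the ending -ps numbered 251. Their counts equalled 9.98% and 8.37% of those of the 91 genes. Of the 77 core genes, all had at least 1 match, 68 had a match with counts, and 17 had more than 10% of the summed counts in pseudogene rows in both libraries.

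Rpl5 and Rpl27, the genes with the lowest levels, had the largest shares. Rpl5 itself, on chromosome 5 (mm10 107900502 to 107909005), held 13435 and 13175 counts. Gm15500, a transcribed processed pseudogene on chromosome 7 (114705217 to 114706235) that is 100% identical to Rpl5 over its aligned length, held 156415 and 168040. Pseudogene rows thus held 92.1% and 92.7% of the counts of Rpl5 and its matches. For Rpl27 the share was 96.1% and 94.1%: the gene held 1724 and 2770 counts, and Rpl27-ps3, with 100% identity, 42666 and 44266. The summed TPM of Rpl5 and its matches was 2270 and 1645, and that of Rpl27 and its matches 1891 and 1361. When every core gene was summed in this way, Rpl5 moved from rank 76 to 4 and Rpl27 from 77 to 8.

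The third gene with over 50% of its counts in pseudogene rows in both libraries was Rps6, whose product is the small subunit target of the S6 kinases. Rps6 held 28010 and 32344 counts and Rps6-ps4, a 100% identical copy on chromosome 2, 49191 and 49303. Further genes were picked after their values were seen. For Rps23, a protein of the decoding centre, Rps23-ps1 held 38840 and 41268 counts, and the pseudogene share was 55.2% and 44.6%. For Rpl39, Rpl39-ps held 28260 and 26875 counts, a share of 47.3% and 52.8%. Rpl31 shared 50.9% and 44.7% of its counts, mainly with Rpl31-ps8, and Rpl10a shared 45.9% and 31.9% with Rpl10a-ps1. Short rows weigh heavily in TPM: with fewer counts than Rpl39 in replicate 1, Rpl39-ps had 2234 TPM there against 889 for Rpl39. Sums of TPM over pseudogene rows, and the ranks, median and subunit difference drawn from them, carry this weight.

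Protein-coding copies among the 91 genes shared counts in the same way. Rps12 had 8106 and 8873 counts, its 100% identical copy Rps12-ps3 had 13391 and 14864, and the pseudogene row Rps12l1 had 11696 and 7121. Rps27 had 1795 and 2087 counts, against 7354 and 7919 for Rps27rt, which is identical over its aligned bases. Counts added over a core gene, its matched pseudogenes and its matched copies were whole numbers within 0.05 in both libraries for 59 of the 77 core genes, whereas the counts of the gene alone were whole for 8. Counts of these groups were thus fractional by row and whole by group. Which locus a read came from cannot be told apart in these tables. For 46 core genes over 95% of the group's counts lay in the core gene in both libraries, and for 5 under 50% did.

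**Figure D2:**
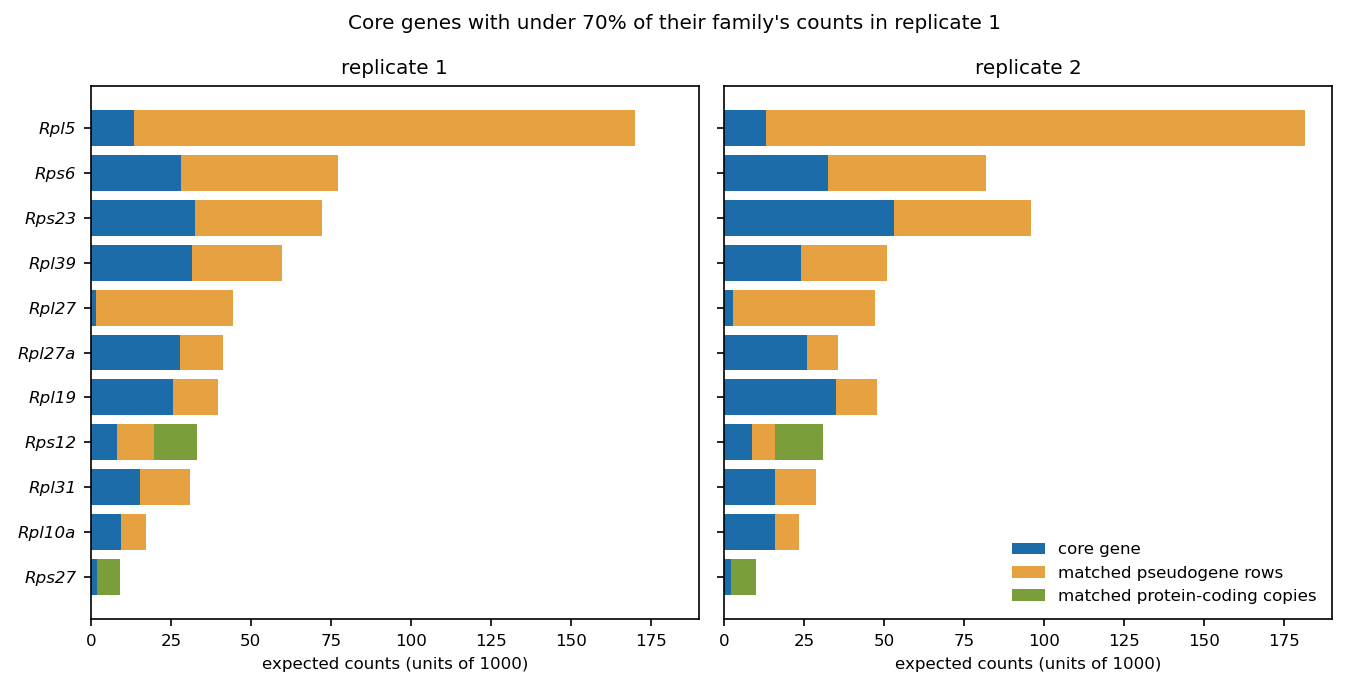
Expected counts, in units of 1000, of core genes with under 70% of their group's counts in replicate 1, stacked with those of matched pseudogene rows and matched protein-coding copies, in replicate 1 (left) and replicate 2 (right). Pseudogene rows make up most of the bar for Rpl5 and Rpl27 in both libraries.

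After summing with pseudogene rows Rpl37a (186 and 135 TPM) was the lowest core gene, and Rps19 (279 and 214) was also among the lowest. Rps19 had 1.37% and 0.580% of its counts in matched pseudogenes, and Rpl37a 5.48% and 5.04%, so little of their counts lay in such rows. The median of the 77 sums was 657 TPM, against 579 for the genes alone.

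Related genes outside the core were mostly far below the core genes they resemble. Rpl10l, a copy of Rpl10 known from testis, and Rpl39l, a copy of Rpl39 also known from testis, had 0 counts in both libraries. Against a floor of 3 counts per library, Rpl10 was at least 9205-fold higher than Rpl10l in replicate 1 and at least 15743-fold in replicate 2. Rpl39 was at least 12307-fold and at least 9382-fold higher than Rpl39l. Rpl3l, a muscle form of Rpl3, had 0 counts in replicate 1 and 46 in replicate 2, a TPM of 0.42 there. Rpl3 was thus at least 21300-fold higher in replicate 1 and 1764-fold higher in replicate 2. Rpl9-ps1 and Rpl36-ps4 also had 0 counts in both libraries.

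Other related genes were expressed. Rpl22l1, the partner copy of Rpl22, stood at 38.5 and 20.9 TPM against 1216 and 837 for Rpl22, a log2 ratio of -4.98 and -5.32. Rpl7l1, which acts in ribosome assembly, was at 30.96 and 27.86 TPM, 37.3-fold and 33.2-fold below Rpl7. Rps27l, a p53 target related to Rps27, was at 76.5 and 68.2 TPM, a log2 ratio to Rps27 of -2.19 and -2.05. By expected counts Rps27l (1988 and 2613) exceeded Rps27 (1795 and 2087), whose effective length was only 56.1 and 54.9 bases. Rpl36al, a retained intronless copy of Rpl36a, was high at 379 and 298 TPM and still 7.71-fold and 6.16-fold below Rpl36a.

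Rps27rt was the single related gene of the 8 paired with a core gene to exceed its partner in TPM, at 529 and 392 against 350 and 283, a log2 ratio of 0.60 and 0.47. Rps12-ps3, at 540 and 411 TPM, exceeded Rps12 at 349 and 262. The remaining copies were lower: Rpl9-ps6 was at 44.2 and 25.3 TPM, Rpl10-ps3 at 40.9 and 21.9, and Rpl36a-ps1 at 7.04 and 1.62. Their transcripts were 99.9%, 100% and 98.2% identical to the core transcripts of Rpl9, Rpl10 and Rpl36a over the aligned bases. By contrast Rps27l was 76.4% identical to its core gene and Rpl22l1 74.6%.

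**Figure D3:**
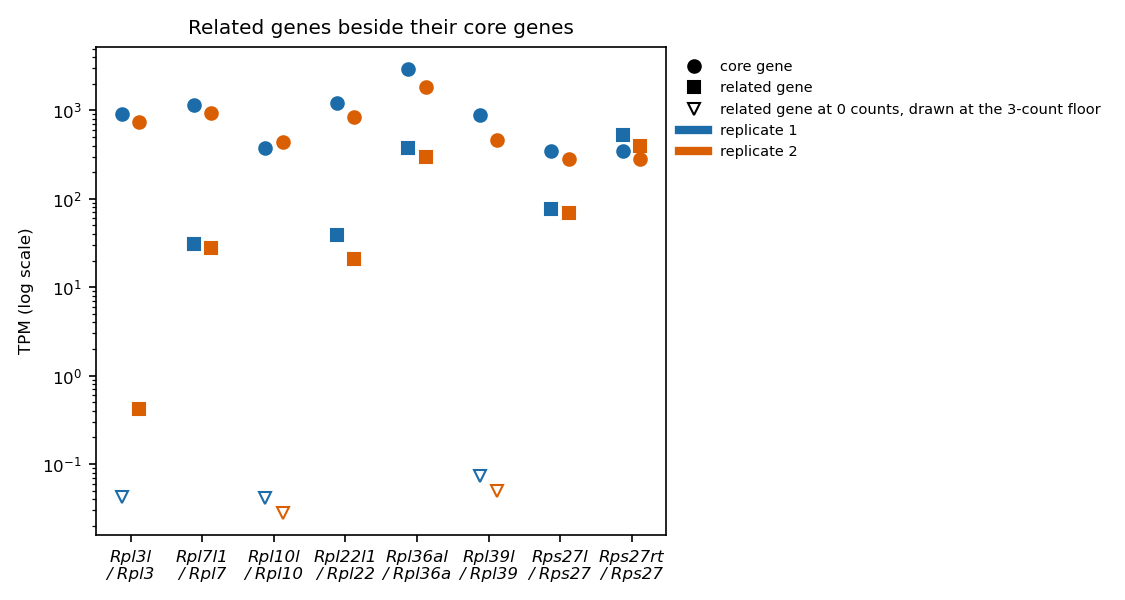
TPM (log scale) of 8 related genes (squares) and the core genes they resemble (circles) in replicate 1 (blue) and replicate 2 (orange), where an open triangle marks a gene with 0 counts drawn at its floor of 3 counts. Rpl10l and Rpl39l sit at the floor in both libraries, and Rps27rt alone lies above its partner.

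The sequences at the start sites were examined for the pyrimidine motif. Of the 91 genes, 65 had an entry in the RefSeq promoter table (GRCm38.p6). A C followed by at least 4 pyrimidines (letters C or T), on the gene's strand and with the C no more than 5 bases from the start base, was present in 30 of them, 46.2%. The same search found it in 21.8% of 16317 nuclear protein-coding genes and in 23.6% of 4479 other genes with a mean of at least 5 TPM. With at least 6 pyrimidines the shares were 35.4% and 7.72% of all genes. With the C on the start base itself they were 21.5% and 2.73%. A match describes letters and is no evidence of regulation.

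Windows of 30 bases, 15 before the annotated start base and 15 from it onward, are shown for the 6 longest runs, for Rpl38 and Rps15a with the C on the start base, and for the pair Rps27 and Rps27rt. Capitals mark the C and the pyrimidines after it, up to the end of the window.
Rpl27a (chr7:109519180-109519209, + strand): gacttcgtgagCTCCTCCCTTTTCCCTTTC
Rpl15 (chr14:18270972-18271001, - strand): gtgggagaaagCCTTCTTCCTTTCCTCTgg
Rpl35 (chr2:39005117-39005146, - strand): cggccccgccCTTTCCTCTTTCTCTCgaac
Rpl13a (chr7:45128731-45128760, - strand): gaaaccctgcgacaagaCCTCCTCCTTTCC
Rpl35a (chr16:33056467-33056496, + strand): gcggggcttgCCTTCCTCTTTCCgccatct
Rps10 (chr17:27635230-27635259, - strand): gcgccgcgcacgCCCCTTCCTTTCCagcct
Rpl38 (chr11:114668565-114668594, + strand): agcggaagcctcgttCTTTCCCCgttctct
Rps15a (chr7:118116133-118116162, - strand): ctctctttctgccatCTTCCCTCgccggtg
Rps27 (chr3:90213634-90213663, - strand): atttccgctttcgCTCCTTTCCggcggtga
Rps27rt (chr9:114982725-114982754, - strand): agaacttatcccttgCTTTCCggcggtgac

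Rps27 and Rps27rt have different letters before the start but shared an unbroken run of 38 bases from base 2 of the Rps27 transcript and base 1 of the Rps27rt transcript. Rpl27a carried 19 pyrimidines after its C and stood at 330 and 209 TPM. Rpl38, with 7, stood at 1195 and 1054 TPM, and Rps15a, also with 7, at 227 and 195.

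At their RefSeq starts, the highest core genes Rpl36a, Rpl26 and Rps3a1 and the low gene Rpl5 had no such run within the distance searched. The leading transcripts of Rpl26, Rps3a1 and Rpl5 start at 68901583, 86142702 and 107900502, outside the windows shown. For these genes the RefSeq search did not reach that start, so it does not show that the run is absent there. The window of Rpl36a holds such a run near its end, but its C lies further from the start base than that distance. The windows of Rpl36a, Rpl26, Rps3a1 and Rpl5 are shown here to set beside the runs above.
Rpl36a (chrX:134585639-134585668, + strand): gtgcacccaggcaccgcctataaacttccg
Rpl26 (chr11:68901551-68901580, + strand): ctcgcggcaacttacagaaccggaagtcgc
Rps3a1 (chr3:86142654-86142683, - strand): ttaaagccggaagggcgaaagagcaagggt
Rpl5 (chr5:107900513-107900542, + strand): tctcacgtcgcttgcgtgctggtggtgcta

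Core genes with the run had a median mean level of 525 TPM (27 genes, from 196 to 1239), and those with an entry but without it 624 TPM (30 genes, from 45.9 to 2380), so the ranges overlapped widely. These levels are amounts of RNA and hold no measure of translation.

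TPM of the ribosomal protein genes was lower in replicate 2 than in replicate 1, as it was for most genes. Of the 91, 85 passed the filter of a mean of at least 5 TPM and 20 counts in all. TPM was lower in replicate 2 for 72 (84.7%) of the 85 and higher for 13, where 76.3% of the 5634 nuclear protein-coding genes tested were lower. The median log2 ratio of replicate 2 over replicate 1, with a pseudocount of 1, was -0.35 for the 85 genes and -0.29 for all genes tested. On counts scaled by TMM the median of the 85 was -0.05, with 49 lower and 36 higher, where 48.2% of all genes tested were lower. With TPM rescaled to the nuclear protein-coding genes without globins, the median was -0.03, again with 49 lower, where 49.6% of all genes tested were lower. The median of the 85 was negative on all 3 scales. On TMM-scaled counts and rescaled TPM it was small, where that of all genes tested was 0.02 and 0.004. The size on TPM moved with the total to which each table is scaled.

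One gene passed 2-fold on TPM: Rpl23, at 892 and 406 TPM, a log2 ratio of -1.13. None of the 85 was over 2-fold higher in replicate 2. Among all genes tested 4.86% were over 2-fold lower and 0.852% over 2-fold higher, 5.72% in all. On TMM-scaled counts Rpl23 stood at -0.53 and none of the 85 passed 2-fold either way, where 1.69% of all genes tested were lower and 1.49% higher, 3.18% in all. On rescaled TPM none of the 85 did either, where 2.61% were lower and 2.66% higher, 5.27% in all. The furthest from 0 on TMM-scaled counts were Rps2, which forms part of the entry channel for messenger RNA, at 0.69 (353 and 463 TPM) and Rpl22l1 at -0.69. Counting error was small, with a median SD of the log2 ratio of 0.012 over the core. This error leaves out the uncertainty of assigning reads to similar rows. On TPM the SD between the 85 ratios was 0.31, below the 0.47 between those of all genes tested. With 2 libraries of 1 group none of these ratios has a test, and Cd34, Itga2b, Pf4 and S100a8, given above, moved between the same libraries.

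**Figure D4:**
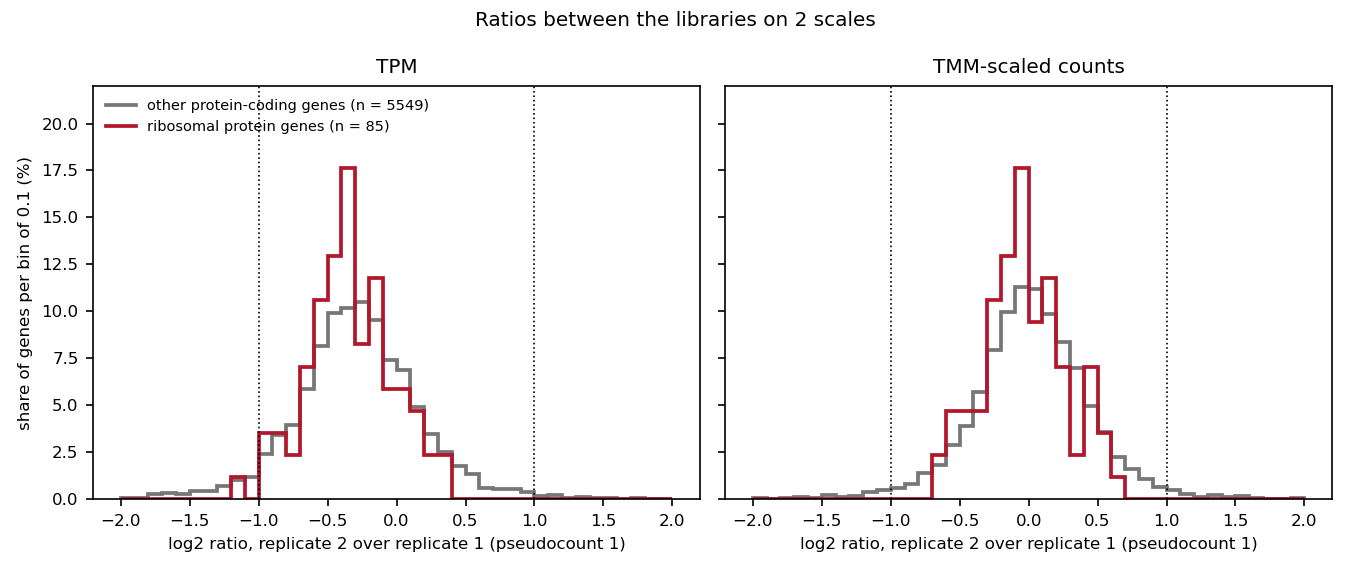
Distribution of the log2 ratio of replicate 2 over replicate 1 (share of genes per bin of 0.1) for 85 ribosomal protein genes and 5549 other protein-coding genes, on TPM (left) and TMM-scaled counts (right), with dotted lines at 2-fold. On TPM both distributions lie below 0, with medians of -0.35 for the 85 and -0.29 for all genes tested, and on TMM-scaled counts both centre near 0.

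The interval of TPM in the authors' tables, which brackets the posterior mean and not always the TPM itself, separated the libraries for 81 of the 85 genes (95.3%), 71 of them lower in replicate 2, where 80.3% of all genes tested were separated. The level of that interval is not stated, and it describes a single library rather than the spread between libraries.

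Transcripts of the 91 genes numbered 382. Of the 86 detected genes, 26 had 1 transcript and 60 several, and in 57 of these 60 the transcript with the highest TPM was the same in both libraries. Its share of the gene's TPM was over 90% in both libraries for 28 genes and differed between them by a median of 2.425 percentage points. Transcripts classed as protein-coding held 92.5% and 94.2% of the TPM of the 91 genes, and retained introns 3.38% and 2.53%.

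The largest shift was in Rpl23. Rpl23-204, a transcript classed as without a coding sequence, fell from 50.2% of the gene's TPM in replicate 1 to 6.65% in replicate 2, from 20632 to 1823 counts. The coding transcript Rpl23-201 took 48.3% and 91.1%, with 32873 and 41455 counts. The effective length of the gene, which averages its transcripts, was 661 bases in replicate 1 and 799 in replicate 2. The gene's total of 53858 and 43636 counts thus differed less than its TPM.

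In Rps15a the share of Rps15a-201 was 87.0% and 45.6%, and Rps15a-203 had 0% and 42.2%. Rps15a-203 is only 250 bases long and held 0 and 569 counts, of 15395 and 15176 for the gene. In Rps3, whose product lines the mRNA entry site, Rps3-201 had 89.3% and 58.9% and Rps3-202 had 8.40% and 39.4%. In Rps24, known for alternative splicing at its 3′ end, Rps24-202 led with 53.5% in replicate 1 and Rps24-201 with 69.97% in replicate 2. In Rpl22l1, Rpl22l1-206 led with 65.6% in replicate 1 and Rpl22l1-201 with 47.9% in replicate 2. In Rpl23, Rps24 and Rpl22l1 the leading transcript by TPM thus differed between the libraries, and in Rps15a and Rps3 it was the same. By expected counts this turned for 4 of these 5 genes. Rpl23, Rps24 and Rpl22l1 each kept 1 leading transcript: Rpl23-201, Rps24-202 and the retained intron Rpl22l1-208 (783 and 460 counts). Rps15a was led by Rps15a-201 (7514 counts) in replicate 1 and by the longer Rps15a-204 (8775 counts) in replicate 2.

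**Figure D5:**
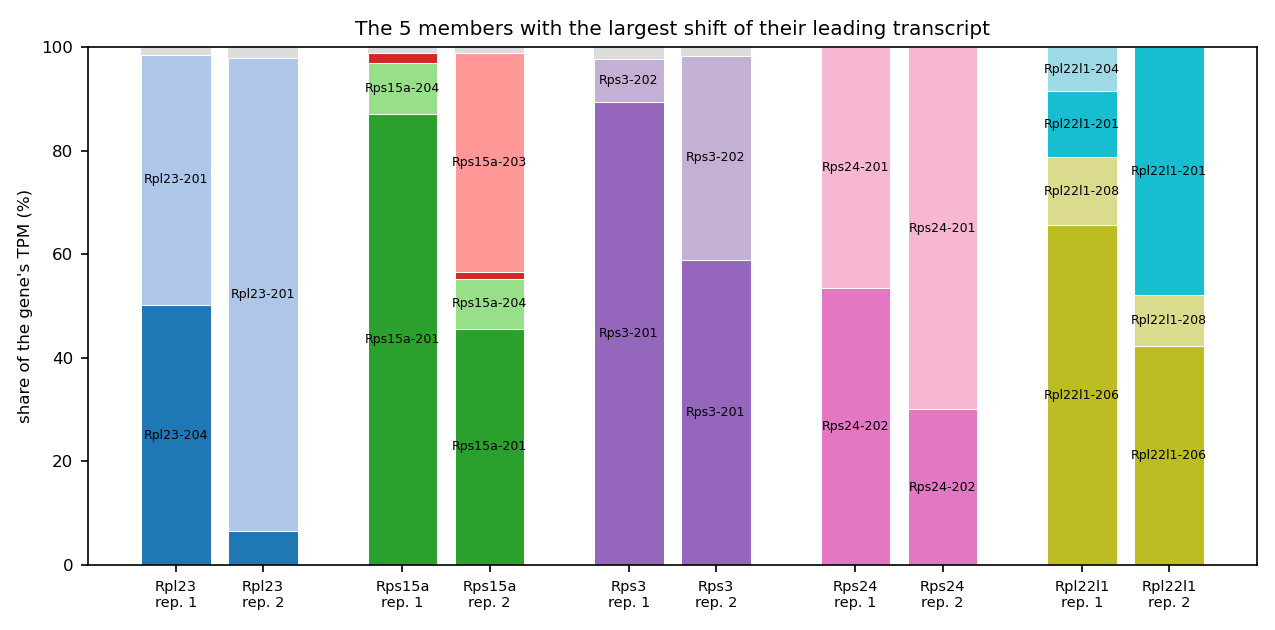
Share of each gene's TPM (%) held by each transcript in replicate 1 and replicate 2, for the 5 genes with the largest difference in the share of the leading transcript, with transcripts too small to label in unlabelled colours or grey. Rpl23-204 holds 50.2% in replicate 1 and 6.65% in replicate 2.

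In 4 genes a leading transcript was not classed as protein-coding in GENCODE M21. Rpl12-201, with 84.2% and 82.4% of the TPM of Rpl12, carries the class of nonsense-mediated decay. Rps20-201, with 97.1% and 94.7% of Rps20, carries that of a retained intron. For Rpl13a the leading transcript is not listed in M21 and held 70.6% and 70.5%. The fourth was Rpl23-204. These classes come from a later annotation than the one behind the tables.

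Introns of ribosomal protein genes are known hosts of small nucleolar RNAs, which guide the modification of ribosomal RNA. Inside 30 of the 91 genes lay 58 annotated small nucleolar RNA genes. Counts were present in both libraries for 17 and in neither for 32. Of the 35 shorter than 100 bases 2 had counts in both libraries, and of the 23 at least 100 bases long 15 did. The labelled lower size limits of the libraries were 200 and 215, and their part in this was not tested. The 91 genes lay on 20 chromosomes, 14 of them on chromosome 7, and 4 core genes (Rpl10, Rpl36a, Rpl39 and Rps4x) lay on the X chromosome. Overlaps were searched with annotated genes classed as protein-coding, long intergenic noncoding, antisense or processed transcript. The small nucleolar RNA genes above, which lie on their hosts' strand, and pseudogenes were left out. Genes of the classes searched overlapped 22 of the 91 on the other strand and 4 (Rpl13, Rpl13a, Rpl19 and Rpl24) on the same strand. No source used here says whether counting used the strand, so values of these genes may hold reads of their neighbours.

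Other genes of ribosome function were listed for comparison, and all 23 were detected, with a median mean level of 123 TPM. Of the 23, TPM was lower in replicate 2 for 17 and higher for 6, and TMM-scaled counts were lower for 12 and higher for 11, near the 76.3% and 48.2% of all genes tested that were lower. Genes whose messenger RNAs also carry the pyrimidine motif were high: the elongation factor Eef1a1 stood at 4961 and 3177 TPM, Eef1b2 at 1107 and 731, Eef2 at 453 and 382, Tpt1 at 299 and 181 and Pabpc1 at 145 and 101. Npm1, a nucleolar chaperone of ribosome assembly, was at 1712 and 1344 TPM, and Naca, which binds new chains at the exit tunnel, at 616 and 427. Regulators were far lower. Larp1, which binds the pyrimidine motif, was at 13.5 and 14.5 TPM, Mtor at 2.44 and 2.64, and the S6 kinase Rps6kb1 at 12.1 and 11.3. Mdm2, the p53 ligase bound by Rpl5 and Rpl11, was at 17.0 and 9.87 TPM, Tsr2, the chaperone of Rps26, at 16.5 and 8.94, and Heatr3, which carries Rpl5 into the nucleus, at 16.8 and 17.1.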

How the data were processed

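Total RNA-seq of 2 MEP libraries was used. Per the file headers, the authors deposited for each gene and transcript an expected count, a TPM with a posterior mean and, as score values, a lower and an upper bound around it (level not stated), an FPKM, an effective length in bases and, for transcripts, a percent of the gene. Per the deposited text files, the build was mm10 with GENCODE M4. No source used here names the quantifying program. Symbols, classes and coordinates came from GENCODE M21 by gene ID, and 884 rows had no match.

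The genes, the lists and the rules were chosen with earlier results of these data known. Text names the 10 highest and 10 lowest core genes, all genes outside the core, the listed groups, genes past 2-fold and the 5 largest transcript shifts, and others where stated. Ratios used log2(TPM + 1), with other scales from edgeR 4.0.16 (TMM) and DESeq2 1.42.0 (size factors) on rounded counts, with no test of differences, as 1 group of 2 allows none. Pseudogenes were matched with BLAST 2.17.0, and start windows came from RefSeq (GRCm38.p6). Alternatives covered the scale, the pseudocount, the filter, the unit, each library left out, the motif rule and the pseudogene match. Protein sequences were not used here, and some genes within these rules are not reported here.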

Additional observations from a re-analysis of the deposited data

Results flagged for a closer look

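Transcripts of the ribosomal protein genes that are not listed in GENCODE M21, and so took no part in the comparison of transcript classes by that annotation, held 27208 expected counts in replicate 1 and 24585 in replicate 2. Among them was the leading transcript of Rpl13a, with 70.6% and 70.5% of that gene's TPM.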

How the results depend on the processing

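The number of detected genes stayed at 86 under every alternative run (10 counts in both libraries, posterior mean, rescaled TPM, either library alone). The core median of 579 TPM became 2507 on TPM rescaled to nuclear protein-coding genes and 1454 in FPKM, which are other units, and ran from 497 to 646 with 1 library left out. The members' share of counts, 6.49% on average, was 7.55% of nuclear protein-coding counts and ran from 6.30% to 6.67% by library. The 1 gene past 2-fold became 2 with no filter and 0 with rescaled TPM, TMM or DESeq2. The difference of small and large subunit, -0.14, became -0.34 with counts per kb and -0.37 with pseudogene rows added (chosen after seeing the data), and ran from -0.25 to 0.001 by library. One related gene exceeded its partner in TPM in each library alone (from 1 to 1), and 2 did by counts. The pyrimidine share of 46.2% became 21.5% with the C on the start base and, with starts of GENCODE transcripts (chosen after seeing the data), 12.1% on the first base and 28.6% within the first 6 bases. In all genes these GENCODE shares were 2.21% and 10.5%. Counts in pseudogenes, 9.18% of the members' counts on average by symbol, were 17.6% by sequence match (chosen after seeing the data) and ran from 8.37% to 9.98% by library. The causes of these moves were not tested, beyond the change of unit, start or rows that each setting makes. Ratios between the libraries have no value with 1 library left out. No paired analysis was possible because the design has 1 group.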
